A study of Drosophila melanogaster with 44 samples.

Results

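Mod(mdg4) is a BTB-domain chromatin protein of Drosophila melanogaster that occurs as many splice variants. The comparison described here is that of a knockdown (KD) of all variants, Mod(mdg4)-All KD, with a knockdown of variant N alone, Mod(mdg4)-N KD, in cultured ovarian somatic cells (OSC). It asks what the loss of the variants other than N does to gene expression. It takes variant N as lowered alike in both knockdowns, which counts per gene cannot show. Its members were chosen by their labels and are 4 mRNA-seq libraries of the 44 samples in the series, 2 for Mod(mdg4)-All KD and 2 for Mod(mdg4)-N KD. The 2 EGFP KD libraries of the same cells, which received siRNA against a gene that flies lack, are given beside them as values. OSC are a line derived from ovarian follicle cells, and the same line was used for every group. The labels number the libraries of a group as replicates and do not say whether they came from separate cultures, so p-values measure the spread between these libraries only.

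All Mod(mdg4) variants share an N-terminal part with the BTB domain, which mediates contacts between proteins, and differ in their C-terminal part. In many variants that part carries a FLYWCH zinc finger. The variable parts are joined to the common exons by splicing, and several are encoded on the opposite strand and are attached by trans-splicing between separate precursor RNAs. Variant T, also called Mod(mdg4)67.2, is known as a component of the gypsy insulator together with Su(Hw) and CP190.

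The siRNAs listed by the study show how the knockdowns differ. They are printed 5′ to 3′ as the sense strand without the overhang, and capitals mark the bases that pair with positions 2 to 8 of the guide strand. Which of the N siRNAs was used for the sequenced cells was not given in the sources used here. The universal siRNA is taken as that of Mod(mdg4)-All KD from its name in the list.
universal Mod(mdg4) siRNA: gccaccauuguACAACAGc
Mod(mdg4)-N siRNA 1: agcaggaacugGAGGAGUa
Mod(mdg4)-N siRNA 2: cuaccgagaucGAGAUGCa
Mod(mdg4)-N siRNA 3: ccuaggaguuaUCAGCUAa
The universal siRNA matched the Release 6 (dm6) genome once, at 3R:21375687-21375705 on the minus strand. It lay in coding sequence of 22 of the 22 mod(mdg4) transcripts in the Ensembl 115 annotation, and in no other annotated gene. The deposited tables list further mod(mdg4) transcripts, in which the site was not looked for. The N siRNAs matched at 3R:21372819-21372837, 3R:21372687-21372705 and 3R:21372531-21372549, each within an exon of 1 of these 22 transcripts. The first and second lay in coding sequence and the third in exon sequence outside it. Unlike the universal site, the N sites also lay in the annotated precursor genes pre-mod(mdg4)-N, -AA and -O.

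Total expected counts per library were between 13728168 and 18546726 over the 6 OSC libraries. Levels are given as CPM (counts scaled to a common library size), with library sizes normalized over the 6 libraries, and 3 counts correspond to between 0.162 and 0.228 CPM. Libraries of a group differed by more than counting noise, with a chi-square per degree of freedom of 19.6 in Mod(mdg4)-All KD, 6.91 in Mod(mdg4)-N KD and 12.4 in EGFP KD. The follicle cell genes tj, zfh1 and fs(1)Yb were expressed in every library. The share of counts from rDNA genes was 0.55% and 0.599% in Mod(mdg4)-All KD, 0.373% and 0.384% in Mod(mdg4)-N KD, and 0.434% and 0.319% in EGFP KD.

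The targeted gene mod(mdg4) (3R:21350846-21377401, minus strand) was at 108 and 109 CPM in Mod(mdg4)-All KD, against 564 and 546 CPM in Mod(mdg4)-N KD and 618 and 587 CPM in EGFP KD. The All KD libraries were alike, and both were far below the other 4 libraries. It amounted to 19.5% of the Mod(mdg4)-N KD level, and the log2 fold change was -2.36 (SE 0.076, n = 2 each, adjusted p = 0.00022 in edgeR's quasi-likelihood test with Benjamini-Hochberg adjustment, as for every adjusted p given here). Leaving out any 1 library kept the value between -2.38 and -2.34. Since RNA was taken from whole cultures, fewer cells of a kind and less RNA per cell cannot be told apart. The deposited tables list 31 transcripts for the gene and count them together, so it does not show the level of variant N by itself.

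**Figure D1:**
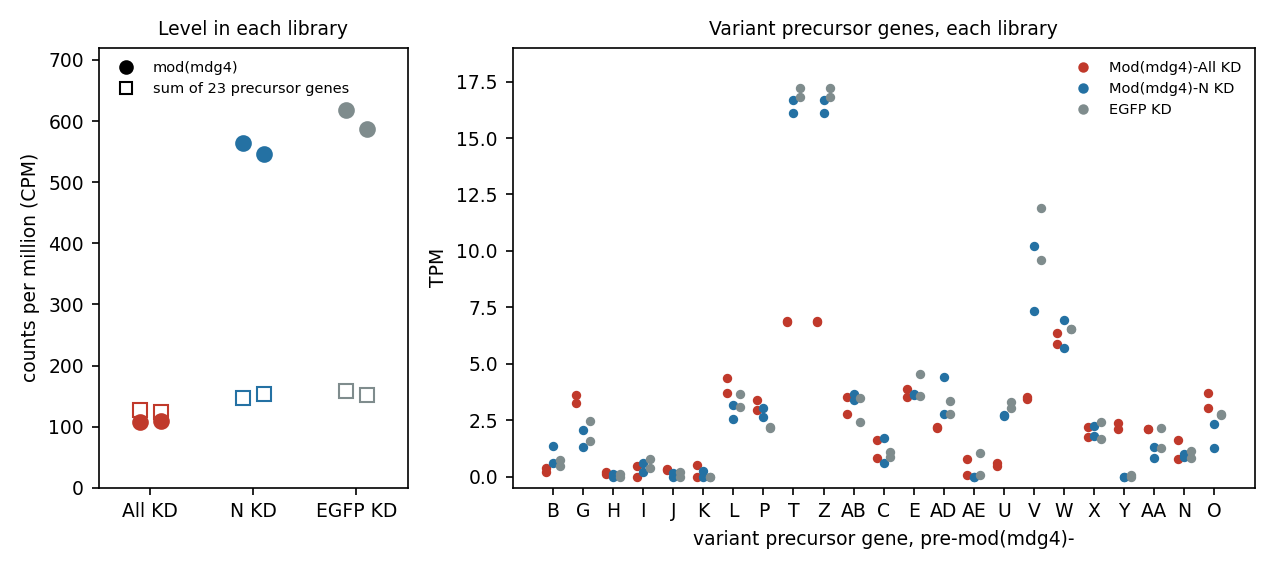
Levels at the mod(mdg4) locus by library. Left, CPM of mod(mdg4) (filled circles) and the summed CPM of the 23 precursor genes (open squares) in Mod(mdg4)-All KD, Mod(mdg4)-N KD and EGFP KD. Right, TPM of each precursor gene, 2 points per group. mod(mdg4) was at 108 and 109 CPM in Mod(mdg4)-All KD, while the precursor sums lay between 123 and 159 CPM in all groups.

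The annotation also holds 23 precursor genes, named pre-mod(mdg4) with the letter of a variant, for the RNAs that supply the variable exons. Their summed level was 128 and 123 CPM in Mod(mdg4)-All KD, against 147 and 153 CPM in Mod(mdg4)-N KD, and 159 and 152 CPM in EGFP KD. The Mod(mdg4)-All KD sums were below all others, by far less than mod(mdg4) itself, and those of the other groups overlapped. Of the 19 precursor genes that were tested, 1 was called higher and 3 were called lower in Mod(mdg4)-All KD (21.1%, against 1.15% of all genes tested), and 2 of the lower calls, T and Z, are a single interval with the same counts.

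Per length, the most abundant precursors were pre-mod(mdg4)-T and pre-mod(mdg4)-Z, which share the interval 3R:21360176-21362131 and had the same values. Each was at 6.86 and 6.90 TPM in Mod(mdg4)-All KD, against 16.1 and 16.7 TPM in Mod(mdg4)-N KD and 16.8 and 17.2 TPM in EGFP KD (log2 fold change of CPM -1.21, SE 0.11, adjusted p = 0.0088). pre-mod(mdg4)-U was at 1.21 and 1.70 CPM in Mod(mdg4)-All KD, against 6.31 and 5.16 CPM in Mod(mdg4)-N KD (log2 fold change -1.97, SE 0.29, adjusted p = 0.043). pre-mod(mdg4)-Y went the other way, with 3.57 and 3.74 CPM in Mod(mdg4)-All KD, 0 counts in both Mod(mdg4)-N KD libraries and 3 and 0 counts in EGFP KD. Against 3 counts per library, it was at least 19.7-fold higher in Mod(mdg4)-All KD. These genes overlap mod(mdg4) or each other, and RSEM had to divide their reads, so their separate values are uncertain. Without Mod(mdg4)-N KD replicate 1 or replicate 2 none of the 4 calls held (adjusted p between 0.0563 and 0.388). The precursors that hold the N siRNA sites were not called. pre-mod(mdg4)-N was at 0.76 and 1.60 TPM in Mod(mdg4)-All KD, 0.98 and 0.85 TPM in Mod(mdg4)-N KD, and 0.82 and 1.11 TPM in EGFP KD.

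Across the 8118 genes with more than 1 CPM in at least 2 of the 4 libraries, Mod(mdg4)-All KD differed from Mod(mdg4)-N KD at 93 genes (1.15% of those tested) at an adjusted p under 0.05. Of these differentially expressed genes (DEGs), 25 were higher (0.308%) and 68 were lower (0.838%) in Mod(mdg4)-All KD. Without adjustment, 931 genes (11.5%) had a p under 0.05, 414 of them higher and 517 lower. The groups' libraries did not overlap in any of the 93 DEGs, and they did not overlap in 42.8% of all tested genes (22.0% higher and 20.8% lower). Most genes moved little. The log2 fold change had quartiles of -0.11 and 0.11, and 97.7% of tested genes were under 2-fold. Of the DEGs, 38 were lower and 11 were higher by 2-fold or more, and 20 and 4 of these passed 4-fold. All 68 lower DEGs are annotated as protein coding, while the 25 higher ones comprise 20 protein-coding genes, 3 rRNA genes, 1 noncoding RNA gene and 1 gene with no entry in the annotation.

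**Figure D2:**
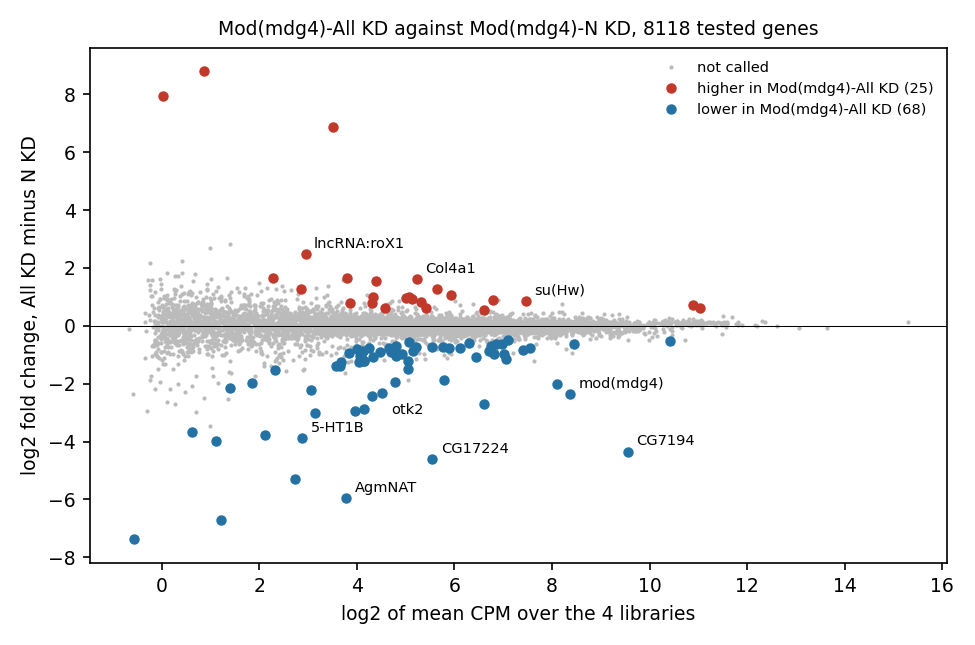
log2 fold change (Mod(mdg4)-All KD minus Mod(mdg4)-N KD) against log2 of the mean CPM over the 4 libraries, 1 point per tested gene. Red points are the 25 DEGs higher and blue points the 68 DEGs lower in Mod(mdg4)-All KD, and the lower DEGs reach further from 0 at a mean above 4 on the x axis.

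In the 92 DEGs other than mod(mdg4), both EGFP KD libraries lay on the Mod(mdg4)-N KD side of both Mod(mdg4)-All KD libraries. In 71 of the 92 the range of the EGFP KD libraries overlapped that of the Mod(mdg4)-N KD libraries. The EGFP KD mean was nearer to Mod(mdg4)-N KD than to Mod(mdg4)-All KD in 91 of the 92, the exception being tok. These counts describe levels of genes that were selected on the other 4 libraries, and no test was made of them.

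The number of DEGs depended on single libraries. It was 12 without Mod(mdg4)-N KD replicate 1 and 15 without Mod(mdg4)-N KD replicate 2, but 613 without Mod(mdg4)-All KD replicate 1 and 329 without Mod(mdg4)-All KD replicate 2. A total of 11 DEGs were called whichever library was left out. They were mod(mdg4), CG17224, CG17264, CG7194, AgmNAT, CG3457, otk2, GstE1, Jheh2, CG6310 and pre-rRNA:CR45847, the last being the only one that was higher in Mod(mdg4)-All KD. All 93 DEGs kept their direction in each of these fits. Their libraries did not overlap between groups, so leaving out a library could hardly change a direction, and this adds no support. DEGs lost their call only where a Mod(mdg4)-N KD library was left out. Such a fit takes its spread from the Mod(mdg4)-All KD pair alone. That pair had a chi-square per degree of freedom of 19.6, against 6.91 in Mod(mdg4)-N KD. The lost calls thus do not mark the Mod(mdg4)-N KD libraries as the weaker ones.

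The most abundant of the strongly lower genes was CG7194 (3L:8302364-8304059, minus strand). It was at 89.3 and 52.9 CPM in Mod(mdg4)-All KD, against 1413 and 1459 CPM in Mod(mdg4)-N KD and 1337 and 1427 CPM in EGFP KD. The groups were far apart, although the All KD libraries themselves differed (log2 fold change -4.34, SE 0.25, adjusted p = 0.0018). AgmNAT, an agmatine N-acetyltransferase gene on X, was at 0.61 and 0.27 CPM in Mod(mdg4)-All KD (8 and 4 counts), against 24.3 and 30.0 CPM in Mod(mdg4)-N KD and 25.2 and 33.8 CPM in EGFP KD. Its log2 fold change was -5.95 (SE 0.28, adjusted p = 0.0012). This value was -6.60 without Mod(mdg4)-All KD replicate 1 and -5.465 without Mod(mdg4)-All KD replicate 2. CG3457, also on X, was at 3.11 and 3.95 CPM in Mod(mdg4)-All KD, against 26.2 and 29.0 CPM in Mod(mdg4)-N KD and 25.2 and 29.1 CPM in EGFP KD (log2 fold change -2.96, SE 0.15, adjusted p = 0.0016). In all of these, both Mod(mdg4)-All KD libraries were far below the other 4, which overlapped each other.

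CG17224 had the lowest adjusted p together with mod(mdg4). It was at 3.95 and 3.4 CPM in Mod(mdg4)-All KD, against 84.2 and 95.7 CPM in Mod(mdg4)-N KD and 84.9 and 102 CPM in EGFP KD (log2 fold change -4.62, SE 0.14, adjusted p = 0.00022). Its neighbor CG17264 is transcribed in the opposite direction from the other side of a short interval on 2L, and was at 6.91 and 5.65 CPM in Mod(mdg4)-All KD, against 31.9 and 35.1 CPM in Mod(mdg4)-N KD and 25.7 and 33.1 CPM in EGFP KD (log2 fold change -2.42, SE 0.13, adjusted p = 0.0018). The 2 genes thus fell together. The 199 bases between their annotated starts, 2L:3018309-3018507 on the plus strand, are shown because they hold the starts of both genes at their ends, with the sequence CGATA, searched on both strands, in capitals.
interval between CG17224 and CG17264: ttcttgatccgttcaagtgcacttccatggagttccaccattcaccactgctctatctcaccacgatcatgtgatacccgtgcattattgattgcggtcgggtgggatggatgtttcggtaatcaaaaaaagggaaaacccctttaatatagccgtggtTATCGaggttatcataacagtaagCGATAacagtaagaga
It holds CGATA once on each strand. CGATA occurred in the 250 bases before the start of 51.1% of tested genes, and in 29.7% of those of the lower and 35.0% of those of the higher DEGs. Of 84 DEGs with a place on the main chromosome arms outside the mod(mdg4) locus, 5 pairs lay within 20 kb of each other, and 3 of these pairs were lower together. Most DEGs were lower (68 of 93), and how often tested genes lie this close was not counted. Nothing is therefore read from the number of pairs.

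otk2, which encodes a receptor tyrosine kinase-like protein, was at 7.89 and 7.42 CPM in Mod(mdg4)-All KD, against 39.6 and 37.1 CPM in Mod(mdg4)-N KD and 39.0 and 43.1 CPM in EGFP KD (log2 fold change -2.33, SE 0.10, adjusted p = 0.00093). 5-HT1B, a serotonin receptor gene, was at 0.99 and 0.88 CPM in Mod(mdg4)-All KD, against 14.7 and 13.0 CPM in Mod(mdg4)-N KD and 15.4 and 14.2 CPM in EGFP KD (log2 fold change -3.88, SE 0.22, adjusted p = 0.0018). CCKLR-17D3, a neuropeptide receptor gene of the cholecystokinin type, was at 0.76 and 0.41 CPM in Mod(mdg4)-All KD, against 9.44 and 6.62 CPM in Mod(mdg4)-N KD and 12.4 and 5.14 CPM in EGFP KD (log2 fold change -3.79, SE 0.38, adjusted p = 0.012). The low values of the last gene rest on few reads, and its N KD and EGFP KD libraries overlap. mew, the gene of the integrin subunit alphaPS1, was lower by a smaller amount, with 20.9 and 21.3 CPM in Mod(mdg4)-All KD, against 34.1 and 34.7 CPM in Mod(mdg4)-N KD, and 39.3 and 46.5 CPM in EGFP KD (log2 fold change -0.71, SE 0.086, adjusted p = 0.021). Only otk2 was still called without Mod(mdg4)-N KD replicate 1, where the adjusted p was 0.0562 for 5-HT1B, 0.140 for CCKLR-17D3 and 0.218 for mew. Without Mod(mdg4)-N KD replicate 2 it was 0.0289, 0.0589 and 0.193 for these 3 genes.

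ea encodes Easter, a serine protease of dorsal-ventral patterning, and was at 2.20 and 1.70 CPM in Mod(mdg4)-All KD, against 14.9 and 16.3 CPM in Mod(mdg4)-N KD and 16.1 and 14.7 CPM in EGFP KD (log2 fold change -3.0, SE 0.20, adjusted p = 0.0039). Agpat2, an acyltransferase gene of phosphatidic acid synthesis, was at 0.61 and 0.068 CPM in Mod(mdg4)-All KD, against 10.5 and 15.4 CPM in Mod(mdg4)-N KD and 13.1 and 22.4 CPM in EGFP KD (log2 fold change -5.28, SE 0.56, adjusted p = 0.014). This value moved to -7.41 without Mod(mdg4)-All KD replicate 1 and to -4.40 without Mod(mdg4)-All KD replicate 2, and these libraries held 8 and 1 counts of Agpat2. Jheh2, a juvenile hormone epoxide hydrolase gene, was far more abundant, with 125 and 93.9 CPM in Mod(mdg4)-All KD, against 395 and 486 CPM in Mod(mdg4)-N KD, and 401 and 699 CPM in EGFP KD (log2 fold change -2.01, SE 0.17, adjusted p = 0.0075). Treh, the trehalase gene, was at 28.2 and 19.8 CPM in Mod(mdg4)-All KD, against 84.9 and 88.4 CPM in Mod(mdg4)-N KD and 95.7 and 79.5 CPM in EGFP KD. Its log2 fold change was -1.86 (SE 0.16, adjusted p = 0.0088). Jheh2 and Treh, like CG17264, Hsp67Ba and 18SrRNA:CR45838, lay outside the rule for named genes and were chosen after their values were seen. Genes named below that were not called, other than CG9628 and 5-HT2A, lay outside this rule as well. Without Mod(mdg4)-N KD replicate 1, the adjusted p was 0.0658 for ea, 0.128 for Agpat2 and 0.0960 for Treh, and without replicate 2 it was 0.0538, 0.118 and 0.0619.

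CG1544 had 1 and 0 counts in Mod(mdg4)-All KD, against 74 and 75 in Mod(mdg4)-N KD and 56 and 108 in EGFP KD. This is a ratio of 126 in CPM of Mod(mdg4)-N KD over Mod(mdg4)-All KD, with an exact 95% interval of 22.3 to 5021 that covers counting error only. Cp15, a chorion protein gene of late follicle cells, had 3 counts in each Mod(mdg4)-All KD library, against 56 and 38 in Mod(mdg4)-N KD and 31 and 38 in EGFP KD, a ratio of 13.3 (interval 5.88 to 37.1) in the same sense. CG10184 was at 0.38 and 0.14 CPM in Mod(mdg4)-All KD, against 3.51 and 4.67 CPM in Mod(mdg4)-N KD and 4.72 and 9.91 CPM in EGFP KD (log2 fold change -3.97, SE 0.48, adjusted p = 0.021). This value was -4.82 without Mod(mdg4)-All KD replicate 1 and -3.398 without Mod(mdg4)-All KD replicate 2. CG1544, Cp15 and CG10184 thus rest on very few counts in Mod(mdg4)-All KD. CG30151 was at 5.47 and 3.20 CPM in Mod(mdg4)-All KD, against 29.6 and 32.8 CPM in Mod(mdg4)-N KD and 26.8 and 33.7 CPM in EGFP KD (log2 fold change -2.86, SE 0.22, adjusted p = 0.0059). In each of these 4 genes both Mod(mdg4)-All KD libraries were below the other 4. None was called without Mod(mdg4)-N KD replicate 1 (adjusted p between 0.0743 and 0.176) or without replicate 2 (0.0563 to 0.159).

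Among the genes that were higher, Col4a1, which encodes a collagen IV chain of the basement membrane, was at 50.6 and 62.4 CPM in Mod(mdg4)-All KD, against 19.5 and 17.0 CPM in Mod(mdg4)-N KD and 17.7 and 20.1 CPM in EGFP KD (log2 fold change 1.62, SE 0.14, adjusted p = 0.0088). Ncc69, a sodium-potassium-chloride cotransporter gene, had the lowest adjusted p of the higher DEGs. It was at 68.8 and 73.1 CPM in Mod(mdg4)-All KD, against 28.4 and 30.5 CPM in Mod(mdg4)-N KD and 30.4 and 33.8 CPM in EGFP KD (log2 fold change 1.26, SE 0.093, adjusted p = 0.0055). lncRNA:roX1, a noncoding RNA of the dosage compensation complex in males, was at 13.0 and 13.2 CPM in Mod(mdg4)-All KD, against 2.59 and 2.09 CPM in Mod(mdg4)-N KD and 3.89 and 4.04 CPM in EGFP KD (log2 fold change 2.47, SE 0.20, adjusted p = 0.0069). In each of the 3 genes the All KD libraries stood above all others.

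The remaining named genes that were higher had smaller or less abundant changes. CG31274 was at 2.43 and 1.63 CPM in Mod(mdg4)-All KD and had 0 counts in the other 4 libraries, which makes it at least 11.0-fold higher than Mod(mdg4)-N KD against 3 counts per library. Tdh was at 7.36 and 7.35 CPM in Mod(mdg4)-All KD, against 2.37 and 2.23 CPM in Mod(mdg4)-N KD and 3.01 and 1.84 CPM in EGFP KD (log2 fold change 1.67, SE 0.22, adjusted p = 0.030). The log2 fold change was 1.64 for CG6765, 1.55 for GstD5, a glutathione S-transferase gene, 1.26 for tow and 0.99 for pdgy, an acyl-CoA synthetase gene. GstD5 was at 36.6 and 25.9 CPM in Mod(mdg4)-All KD, against 9.66 and 11.7 CPM in Mod(mdg4)-N KD and 8.43 and 8.20 CPM in EGFP KD. None of these 9 genes, from Col4a1 to pdgy, was called without Mod(mdg4)-N KD replicate 1 (adjusted p between 0.0840 and 0.349) or without replicate 2 (0.0538 to 0.348).

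**Figure D3:**
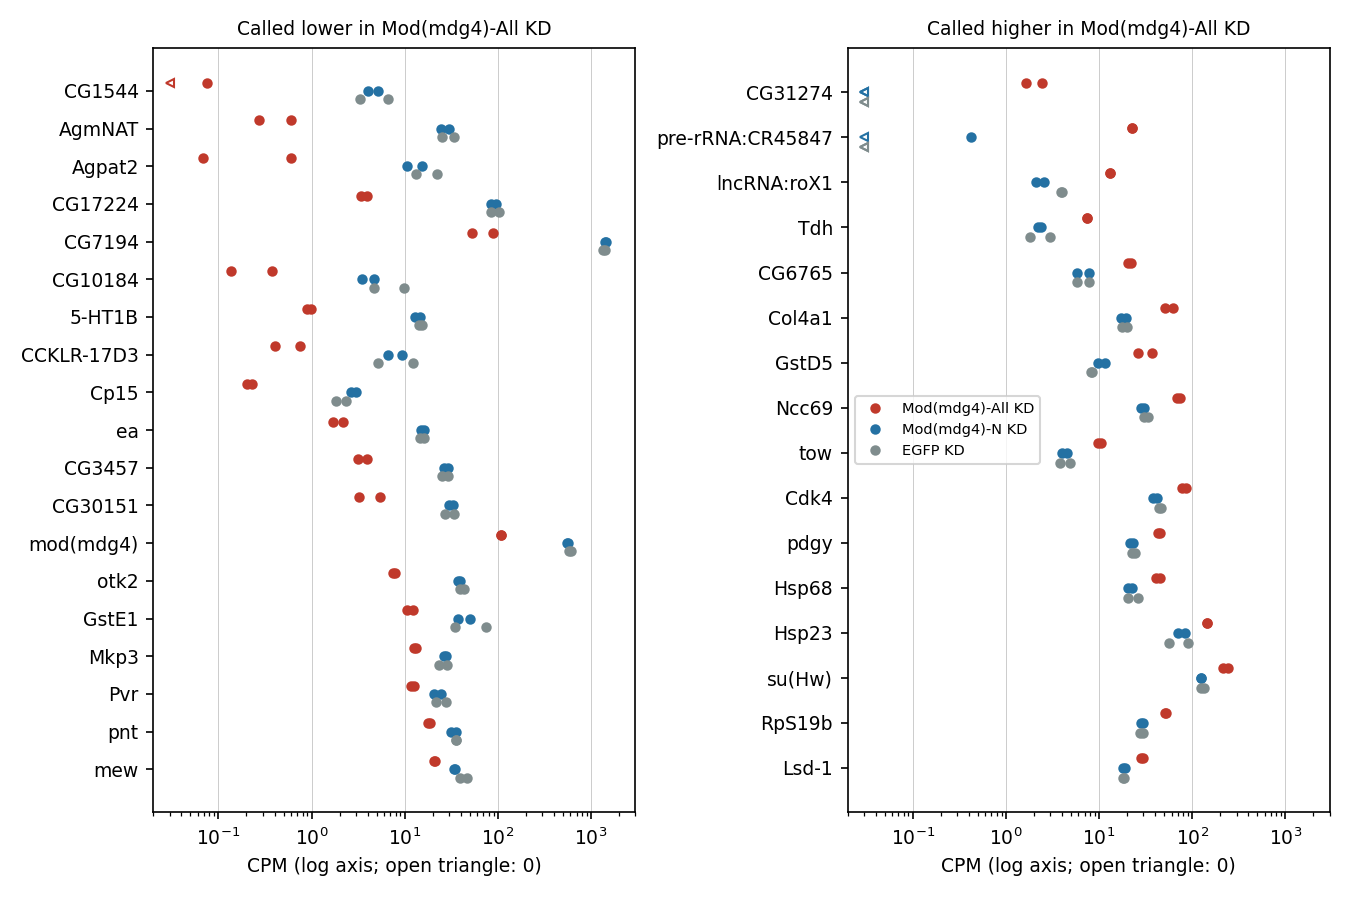
CPM (log axis) of each named gene in every library, 2 points per group, for genes called lower (left) and higher (right) in Mod(mdg4)-All KD. Red is Mod(mdg4)-All KD, blue Mod(mdg4)-N KD and gray EGFP KD, and open triangles mark 0. In every row the red points stand apart from the blue ones, and the gray points lie on the blue side.

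Of 5 rDNA genes tested, 3 were called higher in Mod(mdg4)-All KD. 18SrRNA:CR45838 was at 2552 and 2505 CPM in Mod(mdg4)-All KD, against 1607 and 1687 CPM in Mod(mdg4)-N KD and 1935 and 1321 CPM in EGFP KD. pre-rRNA:CR45847 was at 22.3 and 22.5 CPM in Mod(mdg4)-All KD, and had 0 and 6 counts in Mod(mdg4)-N KD and 0 in both EGFP KD libraries (adjusted p = 0.0064). These genes share reads with near-identical copies, and the libraries were made from poly(A)+ RNA, so the values are uncertain. Their part in the other results was not tested, but with the rDNA genes left out of the fit, a setting chosen after seeing the data, 88 DEGs were called, all of them among the 93.

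Gene lists were read in the same fit. They held 658 distinct tested genes, of which 8 were called higher and 10 lower, against 0.308% and 0.838% of all tested genes. The called members include 1 higher and 3 lower precursor genes of the targeted mod(mdg4) locus, of which T and Z have the same counts. The totals were not recomputed without these precursor genes. The lists were also chosen with earlier results of these data known, so neither an excess nor its absence is read from these totals. Of the 41 lists, 27 had no called member. The median log2 fold change of all tested genes was 0.0015, against which the list medians below can be read. Of all tested genes 1.15% were called, so nothing is read about a list from 1 or 0 called members. Without Mod(mdg4)-N KD replicate 1 or replicate 2, 1 and 2 list members were called in place of 18.

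Among insulator and architectural proteins, 1 of 24 tested genes was called. This was su(Hw), which encodes the zinc finger protein that recruits Mod(mdg4)-T to the gypsy insulator. It was at 215 and 240 CPM in Mod(mdg4)-All KD, against 124 and 125 CPM in Mod(mdg4)-N KD and 135 and 126 CPM in EGFP KD. The groups were well apart (log2 fold change 0.86, SE 0.085, adjusted p = 0.011). Cp190, whose product binds both Mod(mdg4) and Su(Hw), was at 261 and 291 CPM in Mod(mdg4)-All KD, against 287 and 255 CPM in Mod(mdg4)-N KD, and 303 and 270 CPM in EGFP KD, and the groups overlapped (log2 fold change 0.023, adjusted p = 0.96). CTCF and BEAF-32, genes of other insulator proteins, and Trl, the gene of GAGA factor, had log2 fold changes of 0.14, 0.18 and -0.10 and were not called. Without Mod(mdg4)-N KD replicate 1 or replicate 2 the adjusted p of su(Hw) was 0.196 and 0.131.

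In the list of EGFR and Ras signalling, 0 of 20 tested genes were higher and 2 were lower, with a list median of -0.33 and 4 of the 20 members above 0. The median moved with 1 library. It was -0.15 without Mod(mdg4)-All KD replicate 2 and -0.44 without Mod(mdg4)-All KD replicate 1, and the summed level of the list was 2607 and 2072 CPM in Mod(mdg4)-All KD, against 2769 and 2682 CPM in Mod(mdg4)-N KD. Mkp3 encodes a phosphatase that acts on the MAP kinase, and was at 12.4 and 13.1 CPM in Mod(mdg4)-All KD, against 26.4 and 27.9 CPM in Mod(mdg4)-N KD and 28.5 and 23.5 CPM in EGFP KD (log2 fold change -1.09, SE 0.098, adjusted p = 0.0090). pnt encodes Pointed, an ETS transcription factor that acts downstream of the pathway, and was at 17.6 and 18.6 CPM in Mod(mdg4)-All KD, against 35.9 and 31.4 CPM in Mod(mdg4)-N KD and 35.6 and 35.3 CPM in EGFP KD (log2 fold change -0.90, SE 0.11, adjusted p = 0.020). Egfr itself and sty, which encodes the inhibitor Sprouty, had log2 fold changes of -0.38 and -0.53 (adjusted p = 0.096 and 0.074). The genes of the core kinases, Raf and rl, had values of 0.16 and 0.027. Without Mod(mdg4)-N KD replicate 1 the adjusted p was 0.129 for Mkp3 and 0.218 for pnt, and without replicate 2 it was 0.118 and 0.0863.

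The sequence before the annotated start of these 2 genes is shown because both hold several GAGA motifs, which are bound by GAGA factor and its relatives. It was chosen after the values were seen. Each is 250 bases of Release 6 on the gene's strand, with GAGAG in capitals on either strand (CTCTC on the printed one). The pnt sequence is 3R:23346168-23346417 and the Mkp3 sequence 3L:19086427-19086676, both on the minus strand.
pnt: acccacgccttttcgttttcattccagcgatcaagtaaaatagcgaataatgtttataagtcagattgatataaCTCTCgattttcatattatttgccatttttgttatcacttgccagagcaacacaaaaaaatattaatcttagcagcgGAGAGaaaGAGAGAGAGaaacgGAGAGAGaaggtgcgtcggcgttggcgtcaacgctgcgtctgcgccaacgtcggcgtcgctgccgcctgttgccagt
Mkp3: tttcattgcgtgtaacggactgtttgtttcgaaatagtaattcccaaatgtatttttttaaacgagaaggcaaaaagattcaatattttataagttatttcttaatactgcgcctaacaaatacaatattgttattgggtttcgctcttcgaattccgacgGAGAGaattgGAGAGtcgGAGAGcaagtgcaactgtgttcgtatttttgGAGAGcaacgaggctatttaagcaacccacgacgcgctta
With overlaps counted, GAGAG occurs 7 times in the first and 4 times in the second. Among the DEGs, GAGAG was most frequent before CG6765, a higher DEG (18 times). The lower DEGs Ten-m (15), Cad86C (14) and kek2 (8) also held more copies than pnt. GAGAG occurred in this window of 34 of 64 lower DEGs (53.1%) and 7 of 20 higher DEGs (35.0%). Over all tested genes it was 1903 of 8036 (23.7%), with genes of the mod(mdg4) locus left out of each count. TTGCATAC, also searched on both strands, occurred in 0 of 64 lower DEGs, 1 of 20 higher DEGs and 1.03% of tested genes. CTCTC and CGATA can overlap by 1 base. The windows start at the outermost annotated start of a gene, which need not be the one used in OSC, and no binding was measured in this comparison.

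The heat shock and proteostasis list had 2 of 16 tested genes higher. Hsp68 was at 40.5 and 44.7 CPM in Mod(mdg4)-All KD, against 22.7 and 20.6 CPM in Mod(mdg4)-N KD and 20.3 and 26.5 CPM in EGFP KD (log2 fold change 0.97, SE 0.10, adjusted p = 0.014). The small heat shock gene Hsp23 was at 145 and 143 CPM in Mod(mdg4)-All KD, against 70.7 and 83.6 CPM in Mod(mdg4)-N KD and 56.1 and 90.4 CPM in EGFP KD (log2 fold change 0.90, SE 0.098, adjusted p = 0.015). Hsp67Ba, another small heat shock gene, which lies near Hsp23 and is not in the list, went the other way, with 21.4 and 19.7 CPM in Mod(mdg4)-All KD, against 37.6 and 42.3 CPM in Mod(mdg4)-N KD and 35.1 and 44.2 CPM in EGFP KD (log2 fold change -0.96, SE 0.10, adjusted p = 0.015). Hsp83 and the heat shock factor gene Hsf were not called, with log2 fold changes of 0.31 and -0.19. In the cell cycle list 1 of 29 genes was called. Cdk4, the kinase partner of Cyclin D, was at 78.6 and 86.1 CPM in Mod(mdg4)-All KD, against 41.8 and 37.6 CPM in Mod(mdg4)-N KD and 46.0 and 43.7 CPM in EGFP KD (log2 fold change 1.05, SE 0.10, adjusted p = 0.011), while CycD and E2f1 had values of -0.16 and -0.19. None of these 4 calls held without Mod(mdg4)-N KD replicate 1 (adjusted p between 0.110 and 0.145) or replicate 2 (0.0608 to 0.118), and that of Hsp23 was also lost with the 3 OSC groups in a single fit (adjusted p = 0.103).

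Other lists held 1 called gene each. In the basement membrane list it was Col4a1. vkg, the gene of the other collagen IV chain and a neighbor of Col4a1, was at 15.9 and 23.4 CPM in Mod(mdg4)-All KD, against 7.72 and 5.23 CPM in Mod(mdg4)-N KD and 7.55 and 4.77 CPM in EGFP KD, and its log2 fold change of 1.59 missed the threshold (adjusted p = 0.057). The laminin genes LanA, LanB1 and LanB2 had values between -0.17 and -0.028 and were not called. Among serotonin receptor and enzyme genes, 5-HT1B was called and 5-HT1A was at 24.9 and 29.5 CPM in Mod(mdg4)-All KD, against 50.1 and 43.1 CPM in Mod(mdg4)-N KD and 59.1 and 49.4 CPM in EGFP KD, also above the threshold (log2 fold change -0.78, adjusted p = 0.057). GstE1 was the called member of the oxidative stress list (1 of 15). It was at 12.1 and 10.6 CPM in Mod(mdg4)-All KD, against 37.4 and 49.9 CPM in Mod(mdg4)-N KD and 34.8 and 74.3 CPM in EGFP KD (log2 fold change -1.94, SE 0.17, adjusted p = 0.0088).

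Pvr, which encodes the PDGF and VEGF receptor, was the called member of the lists for JNK signalling and for border and junction cells. It was at 11.5 and 12.6 CPM in Mod(mdg4)-All KD, against 24.3 and 20.6 CPM in Mod(mdg4)-N KD and 27.6 and 21.9 CPM in EGFP KD (log2 fold change -0.90, SE 0.13, adjusted p = 0.036). Of the cytoplasmic ribosomal protein genes, 1 of 87 was called, and the list median was 0.10. That median was 0.036 without Mod(mdg4)-All KD replicate 1, and 0.16 without replicate 2. The list summed to 171620 and 155740 CPM in Mod(mdg4)-All KD, against 148240 and 155330 CPM in Mod(mdg4)-N KD, so that replicate 2 was level with a library of the other group. The called gene was RpS19b, a paralog known for its germline expression, at 50.6 and 51.8 CPM in Mod(mdg4)-All KD, against 28.0 and 29.6 CPM in Mod(mdg4)-N KD and 27.7 and 29.8 CPM in EGFP KD (log2 fold change 0.83, SE 0.089, adjusted p = 0.014). In the list for telomere capping the called gene, Lsd-1, encodes the lipid droplet protein perilipin and has no known telomeric role. It was at 28.2 and 29.4 CPM in Mod(mdg4)-All KD, against 19.0 and 18.2 CPM in Mod(mdg4)-N KD and 18.8 and 18.0 CPM in EGFP KD (log2 fold change 0.63, SE 0.090, adjusted p = 0.038). None of these 3 genes was called without Mod(mdg4)-N KD replicate 1 (adjusted p between 0.218 and 0.368) or replicate 2 (0.118 to 0.307).

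No member was called in the lists for the somatic piRNA pathway (18 tested), heterochromatin and H3K9 methylation (17), Polycomb group (18), trithorax group and Brahma complex (23), DNA damage and checkpoint (16) or mitochondrial ribosomal proteins (72). At a background of 1.15% this does not set these lists apart from other genes.

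**Figure D4:**
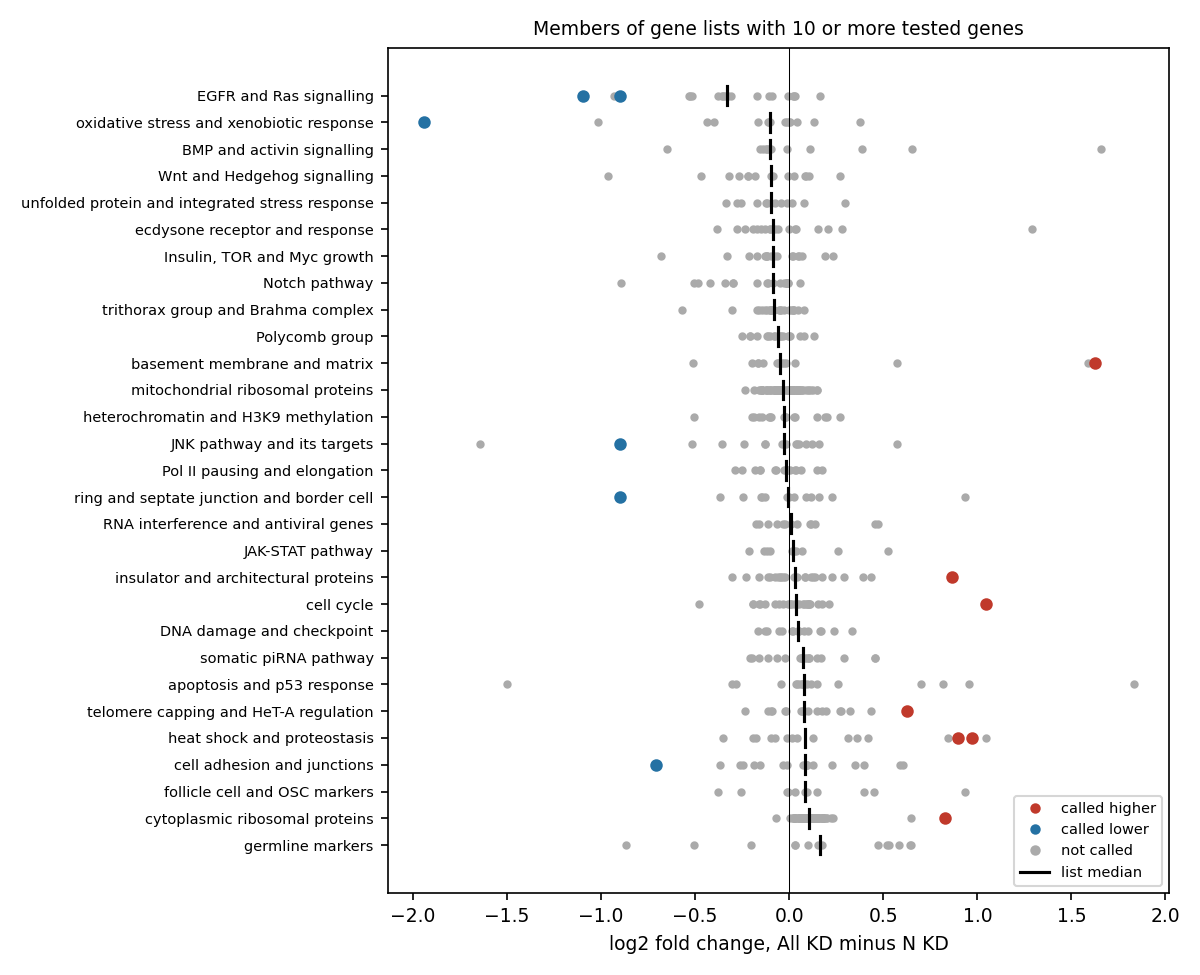
log2 fold change (Mod(mdg4)-All KD minus Mod(mdg4)-N KD) of each tested member of the gene lists with 10 or more tested members, the precursor genes left out. Gray points were not called, red and blue points were called higher and lower, and black bars are list medians. The list of EGFR and Ras signalling has the lowest median, -0.33 (-0.15 without Mod(mdg4)-All KD replicate 2), and the others shown lie between -0.10 and 0.16.

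No follicle cell and OSC marker was called (11 tested of 15, summed level 2096 and 2178 CPM in Mod(mdg4)-All KD, against 2151 and 1981 CPM in Mod(mdg4)-N KD, 2205 and 1977 CPM in EGFP KD). Of the germline list no member was called either (14 tested), and it summed to 1221 and 1219 CPM in Mod(mdg4)-All KD, against 1173 and 1066 CPM in Mod(mdg4)-N KD, and 1209 and 1038 CPM in EGFP KD. Most of this came from spn-E, tud, krimp, gus and del, whereas the germline genes vas, osk and aub were at most 5.72 CPM in each of the 6 libraries. The late follicle cell list, of which Cp15 is part, summed to 7.67 and 7.08 CPM in Mod(mdg4)-All KD, against 10.9 and 13.5 CPM in Mod(mdg4)-N KD, and 10.8 and 12.9 CPM in EGFP KD. It was low in every library, and Cp16, Cp36 and Cp38 had no count in any. Hemocyte, muscle, neuronal and testis lists had no called member.

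The 2 Mod(mdg4)-All KD libraries differed from each other in one direction at this fold. Among 6445 tested genes averaging at least 10 CPM over the 6 libraries, 71 were at least 2-fold higher in replicate 1 than in replicate 2 of Mod(mdg4)-All KD, and 0 were 2-fold lower. In Mod(mdg4)-N KD the counts were 2 and 2, and in EGFP KD 4 and 6. Of the 71 genes, 2 are DEGs (AgmNAT and Agpat2). They include 4 of 16 genes of the JNK list, 3 of 15 of the Notch list and 2 of 18 of the EGFR list. They also include 2 of 9 of the JAK-STAT list, 2 of 13 of the unfolded protein response list and 2 of 14 of the ecdysone response list. Over all genes it was 71 of 6445. Only lists with 2 or more such genes are given, and they share members. Ets21C is in the JNK and EGFR lists, and Ldh in the unfolded protein and ecdysone response lists. Mmp1, a matrix metalloproteinase gene, was at 438 and 105 CPM in Mod(mdg4)-All KD, against 264 and 292 CPM in Mod(mdg4)-N KD and 213 and 190 CPM in EGFP KD. Ets21C, an ETS factor gene that responds to JNK signalling, was at 155 and 33.3 CPM in Mod(mdg4)-All KD, against 129 and 138 CPM in Mod(mdg4)-N KD and 122 and 106 CPM in EGFP KD. E(spl)m8-HLH, a Notch target, was at 115 and 24.4 CPM in Mod(mdg4)-All KD, against 77.2 and 119 CPM in Mod(mdg4)-N KD and 71.5 and 89.3 CPM in EGFP KD. For these genes replicate 2 was the lowest of the 6 libraries, and replicate 1 was the highest for Mmp1 and Ets21C. None of them was called.

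**Figure D5:**
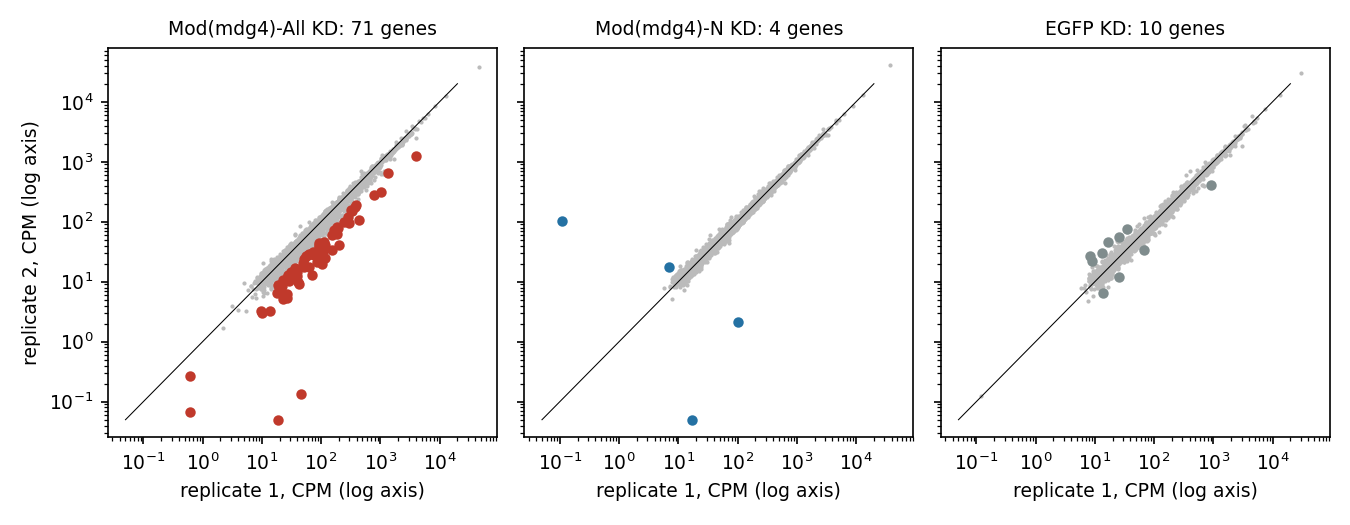
CPM in replicate 2 against replicate 1 (log axes, with values under 0.05 drawn at 0.05) for 6445 genes averaging at least 10 CPM, with the line of equality. Colored points differ by 2-fold or more between the 2 libraries of Mod(mdg4)-All KD (71 genes), Mod(mdg4)-N KD (4) and EGFP KD (10), and those of Mod(mdg4)-All KD all lie below the line.

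CG9628 and 5-HT2A were included because they are known to be low in Mod(mdg4)-N KD from earlier results of these data. CG9628 was at 1.37 and 0.48 CPM in Mod(mdg4)-All KD, against 1.35 and 1.32 CPM in Mod(mdg4)-N KD and 15.9 and 12.7 CPM in EGFP KD. 5-HT2A was at 1.75 and 2.18 CPM in Mod(mdg4)-All KD, against 2.27 and 3.41 CPM in Mod(mdg4)-N KD and 13.4 and 15.9 CPM in EGFP KD. Both knockdowns were low, and neither gene was called between them, with log2 fold changes of -0.56 (SE 0.52, adjusted p = 0.74, and 0.023 without Mod(mdg4)-All KD replicate 2) and -0.52 (adjusted p = 0.63). 5-HT1B and 5-HT2A, both serotonin receptor genes, thus had different patterns, since 5-HT1B was low in Mod(mdg4)-All KD only.

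By position, DEGs were found on every large arm. They made up 0.992% of tested genes on X (4 higher and 10 lower), 1.13% on 2L (1 and 15), 0.671% on 2R (1 and 10), 1.28% on 3L (5 and 15) and 1.43% on 3R (10 and 18). Neither the 69 tested genes of the fourth chromosome nor the 41 within 200 kb of a telomeric end held a DEG. Within 500 kb of a telomeric end 1 of 180 was called (0.556%), Amnionless on 2L. None of the 7 tested genes within 100 kb of mod(mdg4) was called, with the locus itself left out. At a background of 1.15% of all tested genes, these counts do not set any of these regions apart.

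Matches of the universal siRNA to other transcripts were counted, since it was listed for all variants and was not among the N siRNAs. No tested gene other than mod(mdg4) had a site with 2 mismatches or fewer in an annotated transcript. At most 3 mismatches were found in 6 of 8036 tested genes and in 0 DEGs, and at most 4 in 66 tested genes (0.821%), among them the lower DEGs Shrm and zormin. The 7 bases in capitals above occurred in an annotated 3′ UTR of 9 of 63 lower DEGs (14.3%), 1 of 19 higher DEGs (5.26%) and 478 of 7690 tested genes (6.22%). UTR length was not matched between these sets. The part of such matches in the results was not tested.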

How the data were processed

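Paired-end reads of poly(A)+ RNA were mapped to dm6 by the authors with RSEM and STAR, whose versions are not given in the sources used here. The authors deposited expected counts per gene with no normalization for depth, which were rounded. Their deposited TPM values are scaled to a fixed sum in each library, and length columns, in other units deposited by the authors, were not tested. Ovary libraries were not used. The test was the quasi-likelihood F test of edgeR 4.0.16 (R 4.3.3, legacy setting, TMM), over genes with more than 1 CPM in at least 2 of the 4 libraries. A gene was a DEG at an adjusted p under 0.05 (Benjamini-Hochberg), whatever its fold change. SE is the size of the log2 fold change over the root of F. The script was checked on simulated data.

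Symbols and coordinates came from Ensembl 115, which placed 17710 of 17807 genes, and sequences from RefSeq Release 6. The siRNA sequences came from the study's list. The members, lists and tests were chosen with earlier results of these data known. Named were mod(mdg4), CG9628, 5-HT2A, the 12 largest changes in each direction among DEGs with a group mean of at least 2 CPM, the 5 lowest adjusted p in each direction and up to 4 DEGs of each list. Of 863 listed symbols, 841 were matched. DEG counts, named genes and counts of called list members were recomputed with each library left out, a replicate block, no filter, filterByExpr, the newer edgeR algorithm, RLE size factors, the 3 OSC groups fitted together, limma-voom (limma 3.58.1) and DESeq2 1.42.0.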

Additional observations from a re-analysis of the deposited data

How the results depend on the processing

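All 93 DEGs kept their direction under every alternative that tested them. Their libraries did not overlap between groups, so a change of direction was hardly possible. The count of DEGs (93, 25 higher and 68 lower) was 214 (74 and 140) with DESeq2 and 505 (190 and 315) with no filter. With the replicate number as a block it was 28 (5 and 23), all among the 93. Whether the numbers mark matched libraries is not stated. The difference of replicate 1 from replicate 2 was weakly and negatively correlated between the groups (correlation -0.188 over 8118 genes). A crossed replicate block, added after seeing the data, gave 257 DEGs (87 and 170). With each library left out in turn the counts ran between 12 and 613 in total, 1 and 179 higher, and 10 and 477 lower. The genes called in the gene lists (18) were 37 with DESeq2, 69 with no filter, 6 with the replicate block, and between 1 and 86 with a library left out. With RLE size factors, limma-voom, the newer edgeR algorithm, filterByExpr and the single fit of all 3 OSC groups, between 90 and 124 DEGs were called. mod(mdg4) was called in every fit, including the replicate block (log2 fold change -2.361, adjusted p = 0.00722). Of the 38 other called named genes, 20 lost their call under the block, and 2 each lost it with limma-voom (Pvr and Lsd-1), the newer edgeR algorithm (CG31274 and Lsd-1) and the 3 groups in a single fit (Hsp23 and GstE1). Within 500 kb of a telomeric end 1 DEG was found, against 0 within 200 kb.

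With 2 libraries a group, a fit that leaves out 1 library has a lone sample in an arm, which is assumed to vary like the other group. A call lost there, or under the block, does not show a smaller effect. Genes near 3 counts per library cannot be told from 0. The cause of the differences between alternatives was not tested.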
